A study of Homo sapiens with 8 samples.

Results

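The cytochrome P450 genes encode haem enzymes that insert an oxygen atom into drugs, dietary chemicals, fatty acids, sterols, vitamins and hormones. They were taken here as every protein-coding gene whose symbol starts with CYP followed by a digit, without CYP51A1, an enzyme of cholesterol synthesis. That rule gave 55 genes among the 58302 gene identifiers of the count tables, and 21 of the 55 had enough reads to be tested. The values come from strand-specific, rRNA-depleted RNA-seq of Caco-2/15 cells, a human colon cancer line that takes on features of intestinal absorptive cells after it reaches confluence. Every line carried a heterozygous Flag tag introduced by CRISPR-Cas9, on H2AFV, the gene of histone H2A.Z.2 (the Z2flag line), or on H2AFZ, the gene of histone H2A.Z.1 (the Z1flag line), and no untagged cells were analysed here. Each line was harvested 7 days after confluence (Pc) and while still subconfluent (Sc). Each of the 4 groups (Z2flag Pc, Z2flag Sc, Z1flag Pc and Z1flag Sc) had 2 libraries. The 2 libraries of a group are labelled Exp1 and Exp2, and are called replicate 1 and replicate 2 here. The labels do not say whether a tagged line is a single clone, nor whether Exp1 and Exp2 were separate cultures. The p-values therefore measure the spread between these libraries, which may be technical.

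In the small intestine P450 enzymes sit mainly in the endoplasmic reticulum of enterocytes, the absorptive cells, where they oxidise drugs and dietary chemicals before these reach the liver. Most of them receive electrons from the reductase POR, while the mitochondrial members receive them from ferredoxin. Ligand-activated receptors are known to switch many of these genes on: the aryl hydrocarbon receptor acts on CYP1A1, and the receptors PXR and CAR, encoded by NR1I2 and NR1I3, act on genes of the CYP2 and CYP3 families.

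The libraries held 17063826 to 40881682 reads assigned to genes. Levels are given as CPM, counts scaled to a common library size after TMM normalisation. Between 20.6% and 32.0% of the reads counted fell in no annotated feature, with the highest shares in replicate 1 of Z1flag Pc (31.4%) and replicate 1 of Z1flag Sc (32.0%). The intestinal epithelial markers VIL1 (418 to 646 CPM) and EPCAM (439 to 831 CPM) were abundant in all 8 libraries. Some others on the intestinal list were low, with at most 0.189 CPM of CDX1, 1.38 of KRT20, 1.1 of LGALS4 and 6.2 of SI. PTPRC, a leukocyte marker, had at most 0.0382 CPM, and the fibroblast marker COL1A2 and the hepatocyte marker F9 had no count in any library. Other genes on the same marker lists did have reads, with up to 92.5 CPM of LUM (fibroblasts), 21.1 CPM of LYZ (leukocytes) and 3270 CPM of AHSG (hepatocytes).

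In the mean of the 2 lines, 12 of the 21 tested P450 genes rose after confluence and 4 fell, which is 76.2% of those tested, against 55.4% of all 18240 genes tested. Of these 21 genes, 5 reached the level of the count filter in Pc libraries only, CYP2A6, CYP2A7, CYP4F2 and CYP4F12 among them. Such genes could enter the test only by being high in Pc, and all 5 were called higher. Of the 16 that reached that level in both states, 7 rose and 4 fell. With no filter 14 of 48 P450 genes rose and 6 fell in the mean, with 32.3% of all 35174 genes called. The counts and medians here describe the tested genes only. Within the Z2flag line 7 rose and 4 fell (52.4%, against 37.6% of all genes tested), and within the Z1flag line 10 rose and 2 fell (57.1%, against 40.5%). Of all genes tested, 18.3% rose and 19.3% fell in the Z2flag line, 21.3% rose and 19.1% fell in the Z1flag line, and 27.8% rose and 27.5% fell in the mean of both. The median log2 fold change, Pc over Sc, was 0.56 in the Z2flag line, 0.97 in the Z1flag line and 0.75 in their mean for the tested P450 genes. Over all genes tested it was -0.05 in the Z2flag line, 0.04 in the Z1flag line and -0.01 in the mean. The lower bounds of the genes with no Sc count also lay above the P450 medians of the lines. Setting those genes at their bounds therefore could not move these medians, 0.56 and 0.97. In bulk RNA, more cells that express a gene and more RNA of it per cell cannot be told apart. A gene counted as changed where the adjusted p from edgeR's quasi-likelihood test was under 0.05. By this threshold 8 P450 genes changed in both lines. CYP3A5, CYP2A6, CYP2A7, CYP4F2, CYP4F3 and CYP4F12 rose in both, and CYP4X1 and CYP20A1 fell in both. Another 3 passed in the Z2flag line alone and 4 in the Z1flag line alone, but no gene's change differed between the lines once adjusted, as given further on. Leaving out a library moved the number that rose in the Z2flag line to 4 without replicate 1 of Z2flag Sc and to 3 without replicate 2 of Z2flag Sc. Without replicate 1 of both Z1flag groups, the libraries with the highest no-feature shares, the number that rose in the Z1flag line was 6, with 2 that fell.

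**Figure D1:**
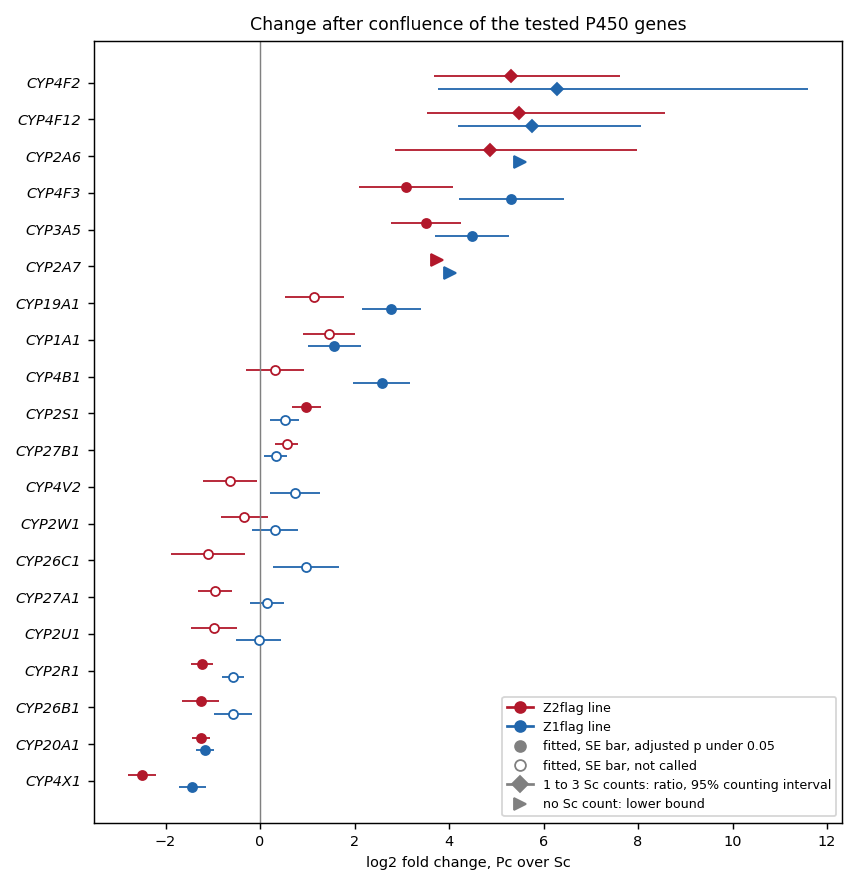
Log2 fold change, Pc over Sc, of 20 tested P450 genes in the Z2flag line (red) and the Z1flag line (blue), with filled symbols where the adjusted p is under 0.05. Circles are fitted values with bars of 1 standard error, diamonds are count ratios with 95% counting intervals where Sc held 1 to 3 counts, and triangles are lower bounds where Sc held none. The 6 genes at the top, CYP4F2 to CYP2A7, are filled in both lines, and CYP20A1 and CYP4X1 at the bottom are filled in both on the other side of 0.

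The order of the genes changed with the state of the cells. Per kilobase of exon, CYP1A1 ranked first in Pc cells, with a median of 24.5 CPM per kilobase over the 4 libraries (11.6 to 41.4), ahead of CYP27A1 (10.8, range 6.84 to 12.7) and CYP20A1 (7.05, range 6.36 to 7.70). The range of CYP27A1 overlapped those of its neighbours on either side, so these orders were not beyond the spread. In Sc cells CYP4X1 (median 20.4 CPM per kilobase, range 11.2 to 23.8), CYP20A1 (16.6, range 15.3 to 17) and CYP27A1 (15.3, range 6.28 to 18.3) came first with overlapping ranges, and CYP1A1 was the fourth at 6.58 (5.41 to 17.5). The summed CPM of all 55 genes was 271 and 230 in the Z2flag Pc libraries, against 286 and 227 in Z2flag Sc. It was 287 and 245 in Z1flag Pc, against 168 and 226 in Z1flag Sc. The Z2flag groups therefore overlapped in total, while their make-up differed. CYP1A1 alone made up 52.4% and 32.0% of the sum in Z2flag Pc and 21.1% and 8.21% in Z2flag Sc. Its share in Z1flag Pc was 13.9% and 38.7%, and in Z1flag Sc it was 15.6% and 8.40%.

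**Figure D2:**
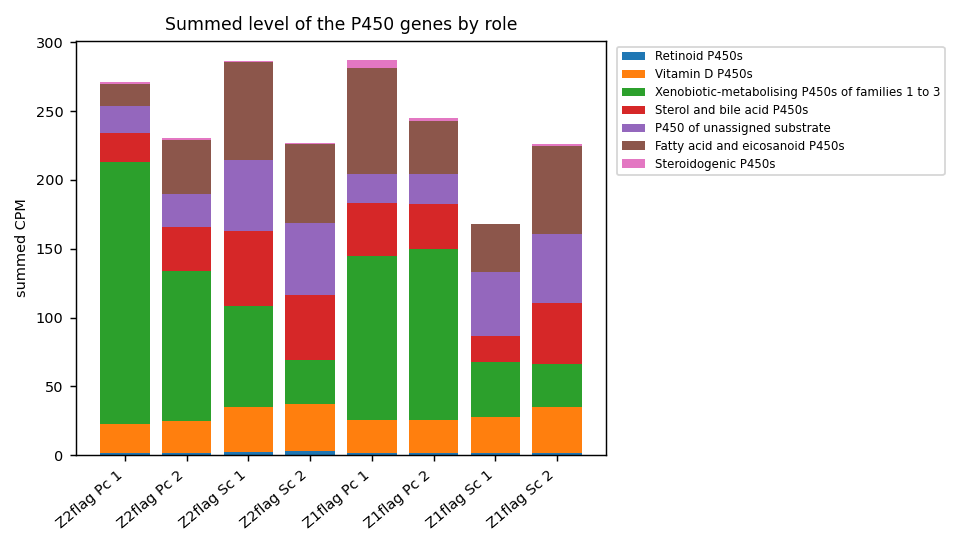
Summed CPM of the P450 genes in each of the 8 libraries, stacked by role, on a linear axis from 0. The band of xenobiotic-metabolising genes is 109 to 191 CPM in the 4 Pc libraries and 30.8 to 73.7 CPM in the 4 Sc libraries.

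The xenobiotic-metabolising genes of families 1 to 3 stood higher in Pc cells. Of the 20 genes on this list 7 were tested, and 6 of the 7 rose in the mean of both lines and none fell (4 rose in the Z2flag line and 5 in the Z1flag line). The shares of all genes tested that rose were 27.8% in the mean, 18.3% in the Z2flag line and 21.3% in the Z1flag line. CYP2A6 and CYP2A7 were among the risers that reached the filter level in Pc libraries only, and so could be tested only by being high in Pc. The 20 genes together had 191 and 109 CPM in Z2flag Pc, against 73.7 and 31.9 CPM in Z2flag Sc. In Z1flag Pc they had 119 and 124 CPM, against 39.6 and 30.8 CPM in Z1flag Sc. No Sc library reached a Pc library. The exception among the tested genes was CYP2W1, known from fetal colon and colorectal tumours, with 0.601 to 1.06 CPM in Pc and 0.496 to 1.09 CPM in Sc libraries and a mean log2 fold change of -0.01 (SE 0.35).

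The start regions of 4 of these genes are shown because the genes rose in both lines or, for CYP1A1, ranked first in Pc cells. CYP1A1 passed the threshold in 1 of the 2 lines, Z1flag, and was added after its values were seen. The sequences are the 250 bases before the RefSeq start on GRCh38.p14, all on the minus strand: chr7:99679997-99680246 for CYP3A5, chr19:40850448-40850697 for CYP2A6, chr19:40882232-40882481 for CYP2A7 and chr15:74725529-74725778 for CYP1A1. Capitals mark matches on either strand to 6 searched motifs: the aryl hydrocarbon receptor core GCGTG, the TATA box TATAAA, the nuclear receptor half-site AGGTCA, the HNF4 site CAAAGTCCA, the HNF1 site (searched as its palindromic consensus), and the CDX site CCATAAA.
CYP3A5: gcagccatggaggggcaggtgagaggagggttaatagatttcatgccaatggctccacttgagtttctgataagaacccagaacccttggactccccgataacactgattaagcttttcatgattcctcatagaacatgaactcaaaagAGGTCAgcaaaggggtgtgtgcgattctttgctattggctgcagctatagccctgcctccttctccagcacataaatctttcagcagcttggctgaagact
CYP2A6: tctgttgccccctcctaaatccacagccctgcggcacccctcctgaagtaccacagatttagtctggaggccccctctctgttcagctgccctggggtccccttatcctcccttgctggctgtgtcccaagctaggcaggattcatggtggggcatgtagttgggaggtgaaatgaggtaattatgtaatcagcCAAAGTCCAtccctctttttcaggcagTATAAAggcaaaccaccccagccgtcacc
CYP2A7: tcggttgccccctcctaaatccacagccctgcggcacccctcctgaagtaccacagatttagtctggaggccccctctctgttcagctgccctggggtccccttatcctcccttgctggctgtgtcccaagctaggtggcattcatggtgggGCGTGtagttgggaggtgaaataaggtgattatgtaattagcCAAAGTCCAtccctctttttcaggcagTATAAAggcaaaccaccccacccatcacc
CYP1A1: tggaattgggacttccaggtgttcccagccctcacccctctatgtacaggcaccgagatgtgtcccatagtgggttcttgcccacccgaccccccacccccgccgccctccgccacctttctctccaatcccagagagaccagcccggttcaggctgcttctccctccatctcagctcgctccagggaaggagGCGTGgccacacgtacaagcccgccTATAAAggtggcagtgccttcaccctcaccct
The CYP1A1 window holds GCGTG at -57 and TATAAA at -32, counted from the start. The CYP3A5 window holds AGGTCA at -101 and no TATAAA. CYP2A6 and CYP2A7 both hold CAAAGTCCA at -56 and TATAAA at -29, and CYP2A7 alone of this pair has GCGTG at -98; the windows align with 96.0% identity. Of the 21 tested P450 genes 18 had a window in the RefSeq table. GCGTG was in 5 of the 18 and in 32.2% of all 35116 windows of this length, TATAAA in 6 and in 10.7%, and AGGTCA in 4 and in 12.1%. CAAAGTCCA was in 2 of the 18, the CYP2A pair, and in 0.325% of all windows. The HNF1 motif (0.0057% of all windows) and CCATAAA (2.30%) were in none of the 18. No matches overlapped in the printed windows, and a match describes the letters only.

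CYP3A5, which shares many drug substrates with CYP3A4, lies on chromosome 7 at 99648194 to 99680026 (GRCh38, GENCODE version 29, as for all gene positions). It had 25.0 and 13.7 CPM in Z2flag Pc libraries, against 1.76 and 1.63 CPM in Z2flag Sc. The Z1flag Pc libraries had 57.7 and 8.52 CPM and the Z1flag Sc libraries 1.13 and 1.79 CPM. Each Pc library lay above each Sc library, and the 2 Z1flag Pc libraries differed widely from each other. The rise was 11.4-fold in the Z2flag line (log2 3.51, SE 0.74, adjusted p = 0.00511) and 22.5-fold in the Z1flag line (log2 4.49, SE 0.78, adjusted p = 0.00182). Without replicate 1 of Z1flag Pc the log2 fold change in the Z1flag line was 2.57 (adjusted p = 0.00139). The call in the Z2flag line was lost without replicate 1 of Z2flag Sc (adjusted p = 0.0747) or replicate 2 (adjusted p = 0.0837), and with no filter on low counts (0.114; 0.0659 in the Z1flag line). CYP3A4, the main P450 of the adult small intestine, had 2 counts over the 4 Pc libraries and 1 over the 4 Sc libraries, and CYP3A7, its fetal liver relative, had none.

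CYP2A6, the nicotine and coumarin oxidase of liver, and its neighbour CYP2A7 lie on chromosome 19, at 40843538 to 40850447 and 40875439 to 40882752. CYP2A6 had 0.441 and 1.08 CPM in Z2flag Pc, against 0.0238 and 0.0281 CPM in Z2flag Sc. In Z1flag it had 4.2 and 0.970 CPM in Pc and no count in either Sc library. Sc cells thus held 2 CYP2A6 reads in all. In the Z2flag line 26 counts in Pc stood against 2 in Sc, a depth-adjusted ratio of 29 with a 95% counting interval of 7.27 to 252 (adjusted p = 0.0107 by edgeR). In the Z1flag line 130 counts in Pc against 0 made CYP2A6 at least 45.6-fold higher, taking a floor of 3 counts over the Sc group (adjusted p = 0.00154). Of the 130 counts 111 were in replicate 1 of Z1flag Pc, and without it the bound was 15.6-fold; it was 24.7-fold without replicate 1 and 20.9-fold without replicate 2 of Z1flag Sc. The Z2flag ratio was 17.1 without replicate 2 of Z2flag Pc. CYP2A7 had 0.551 and 0.481 CPM in Z2flag Pc and 1.25 and 0.663 CPM in Z1flag Pc, with no count in any Sc library. That is at least 13.4-fold higher in the Z2flag line and at least 16.1-fold higher in the Z1flag line (adjusted p = 0.00305 and 0.00178). Without replicate 1 or 2 of the Sc group the bound was 6.13-fold or 7.26-fold in the Z2flag line and 8.73-fold or 7.39-fold in the Z1flag line, where it was 10.7-fold without replicate 1 of Z1flag Pc. CYP2A7, with a mean level too low for the rule that chose genes to name, was included after its values were seen. Of the 50-base stretches of the CYP2A6 transcripts 32.0% also occur in other P450 rows, chiefly CYP2A7, and 24.3% of those of CYP2A7 occur in others, chiefly CYP2A6, so the split of reads between the pair is uncertain. The CYP2A6 call in the Z2flag line was lost without replicate 2 of Z2flag Pc (adjusted p = 0.0753), replicate 1 of Z2flag Sc (0.0605) or replicate 2 of Z2flag Sc (0.0549).

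CYP1A1, the classical target of the aryl hydrocarbon receptor and an oxidase of polycyclic aromatic hydrocarbons, lies on chromosome 15 at 74719542 to 74725610. It had 142 and 73.7 CPM in Z2flag Pc, against 60.2 and 18.6 CPM in Z2flag Sc. Z1flag Pc libraries held 39.8 and 94.8 CPM, against 26.2 and 19.0 CPM in Z1flag Sc. Within each line the groups did not overlap, but libraries of 1 group differed by about as much as the states. The mean rise over both lines was 2.85-fold (log2 1.51, SE 0.39, adjusted p = 0.00792). The Z1flag change was just past the threshold (log2 1.57, SE 0.56, adjusted p = 0.0450) and the Z2flag change just short of it (log2 1.45, SE 0.55, adjusted p = 0.0601). Both depended on single libraries. Without replicate 2 of Z1flag Pc the adjusted p was 0.404 in the Z1flag line and 0.075 in the mean, and in the Z1flag line it was also 0.122 without replicate 1 and 0.209 without replicate 2 of Z1flag Sc, 0.0562 without replicate 1 and 0.0563 without replicate 2 of Z2flag Pc, 0.0733 without replicate 1 of both Z1flag groups, 0.097 by DESeq2 and 0.365 with no filter. Without replicate 1 of Z2flag Sc the Z2flag change had a log2 of 2.52 and an adjusted p of 0.0212. With no filter the adjusted p of the mean was 0.171.

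CYP2S1, a P450 of epithelia outside the liver, had 19.5 and 17.8 CPM in Z2flag Pc, against 9.10 and 9.82 CPM in Z2flag Sc, with no overlap. In Z1flag Pc it had 8.74 and 16.3 CPM, against 9.33 and 8.09 CPM in Z1flag Sc, and these groups overlapped. It rose 1.97-fold in the Z2flag line (log2 0.98, SE 0.30, adjusted p = 0.0266) and 1.68-fold in the mean of both lines (adjusted p = 0.0124). The log2 fold change in the Z1flag line was 0.52 (SE 0.30, adjusted p = 0.191), and without replicate 1 of Z1flag Pc it was 0.94 (adjusted p = 0.0109). The Z2flag call did not survive leaving out any of the 4 Z2flag libraries (adjusted p = 0.0587 to 0.158) or replicate 1 of Z1flag Sc (0.0523), and the mean call was lost without replicate 2 of Z1flag Sc (0.057) or replicate 1 of Z2flag Sc (0.0528).

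The fatty acid and eicosanoid list had 7 tested genes of 14. In the mean of both lines 4 rose and 1 fell, with 3 up and 1 down in the Z2flag line and 4 up and 1 down in the Z1flag line. Across all genes tested, 27.8% rose and 27.5% fell in the mean. In the Z2flag line 18.3% rose and 19.3% fell, and in the Z1flag line 21.3% rose and 19.1% fell. CYP4F2 and CYP4F12 reached the filter level in Pc libraries only, so they could be tested only by being high in Pc. The 3 CYP4F genes that rose in both lines add a hydroxyl group to the end of fatty acid chains and lie within 1 cluster on chromosome 19. CYP4F3, the leukotriene B4 hydroxylase (15640897 to 15662825), had 2.65 and 18.4 CPM in Z2flag Pc, against 1.57 and 0.872 CPM in Z2flag Sc. In Z1flag it had 42.6 and 13.6 CPM in Pc, against 0.0451 and 1.30 CPM in Sc. Every Pc library was above every Sc library, with wide spread within the groups. The log2 fold change was 3.09 (SE 0.99, adjusted p = 0.0324) in the Z2flag line and 5.32 (SE 1.11, adjusted p = 0.00451) in the Z1flag line. The Z2flag call rested on single libraries: without replicate 2 of Z2flag Pc the log2 was 1.20 (adjusted p = 0.412), and the adjusted p was 0.164 without replicate 1 and 0.255 without replicate 2 of Z2flag Sc, 0.0518 without replicate 1 and 0.0687 without replicate 2 of Z1flag Pc, 0.0894 by DESeq2 and 0.312 with no filter. Without replicate 1 of both Z1flag groups the adjusted p in the Z1flag line was 0.082, at a log2 of 3.42, and with no filter it was 0.125 in the Z1flag line and 0.0639 in the mean.

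CYP4F2, which hydroxylates arachidonic acid and vitamin K (15878023 to 15898120), had 0.772 and 2.35 CPM in Z2flag Pc, against 0 and 0.0844 CPM in Z2flag Sc. The Z1flag Pc libraries had 1.74 and 1.43 CPM and the Z1flag Sc libraries 0.0451 and 0 CPM. Its 53 Pc counts against 3 Sc counts in the Z2flag line gave a ratio of 39.4 (95% counting interval 12.8 to 197, adjusted p = 0.00256). The 74 against 1 in the Z1flag line gave 77.8 (13.5 to 3110, adjusted p = 0.00254). The Z2flag ratio of CYP4F2 was 60.7 without replicate 1 and 20 without replicate 2 of Z2flag Pc, 18.1 without replicate 1 of Z2flag Sc, and at least 21.4 without replicate 2 of Z2flag Sc. Its Z1flag ratio was at least 14.0 without replicate 1 and 35.7 without replicate 2 of Z1flag Sc. CYP4F12, which acts on fatty acids and some antihistamines (15672757 to 15697174), had 0.937 and 1.38 CPM in Z2flag Pc, against 0.0475 and 0 CPM in Z2flag Sc. Z1flag Pc libraries held 4.73 and 1.53 CPM, against 0 and 0.114 CPM in Z1flag Sc. The ratio was 44.7 (11.6 to 381, adjusted p = 0.00368) in the Z2flag line, from 40 counts against 2, and 54.3 (18.2 to 266, adjusted p = 0.00154) in the Z1flag line, from 155 against 3. Replicate 1 of Z1flag Pc held 125 of the 155 CYP4F12 counts, and without it the ratio was 24.7. Without replicate 1 or 2 of Z1flag Sc it was 29.4 or at least 24.9, and in the Z2flag line it was at least 13.6 or 24.2 without replicate 1 or 2 of Z2flag Sc. Both genes were close to absent from Sc libraries, where 3 counts correspond to 0.0713 to 0.135 CPM, and the calls of both held in each setting tried, at sizes that moved with single libraries. Their counting intervals cover counting error only. CYP4F2 and CYP4F3 share 12.1% and 8.13% of their 50-base stretches with other P450 rows, chiefly with each other.

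CYP4X1, whose substrates are little known, moved the other way. This gene of chromosome 1 (47023568 to 47050751) had 8.99 and 10.5 CPM in Z2flag Pc, against 60.6 and 49.5 CPM in Z2flag Sc. For the Z1flag line the values were 15.1 and 15.9 CPM in Pc and 28.7 and 54.7 CPM in Sc. All Pc libraries lay below all Sc libraries. It fell to 0.177 of the Sc level in the Z2flag line (log2 -2.50, SE 0.30, adjusted p = 0.000435) and to 0.372 in the Z1flag line (log2 -1.43, SE 0.29, adjusted p = 0.00405). In the Z1flag line the log2 was -0.89 (adjusted p = 0.0429) without replicate 2 of Z1flag Sc.

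CYP4B1, which oxidises fatty acids and some plant toxins, had 0.331 and 0.842 CPM in Z2flag Pc, against 0.475 and 0.450 CPM in Z2flag Sc, and these groups overlapped. In Z1flag Pc it had 2.46 and 0.970 CPM, against 0.270 and 0.305 CPM in Z1flag Sc, with no overlap. It rose in the Z1flag line (log2 2.57, SE 0.61, adjusted p = 0.00861) and in the mean (log2 1.45, SE 0.44, adjusted p = 0.0175). The log2 fold change in the Z2flag line was 0.32 (SE 0.62, adjusted p = 0.704). The Z1flag call was lost without replicate 1 of Z1flag Sc (0.0649) or replicate 2 of Z1flag Sc (0.0546), and without replicate 1 of both Z1flag groups (0.136). The log2 was 1.77 without replicate 1 of Z1flag Pc alone. The mean call was lost without replicate 1 of Z1flag Sc (0.0567), replicate 2 of Z2flag Pc (0.106) or replicate 2 of Z2flag Sc (0.051), and without replicate 1 of both Z1flag groups (0.0983). The other tested genes of the list did not pass in either line: CYP2U1, a fatty acid hydroxylase, ranged from 1.38 to 5.11 CPM in Pc and 3.33 to 6.35 CPM in Sc libraries, and CYP4V2, known for a retinal dystrophy, from 0.551 to 3.55 CPM in Pc and 1.26 to 1.62 CPM in Sc libraries.

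**Figure D3:**
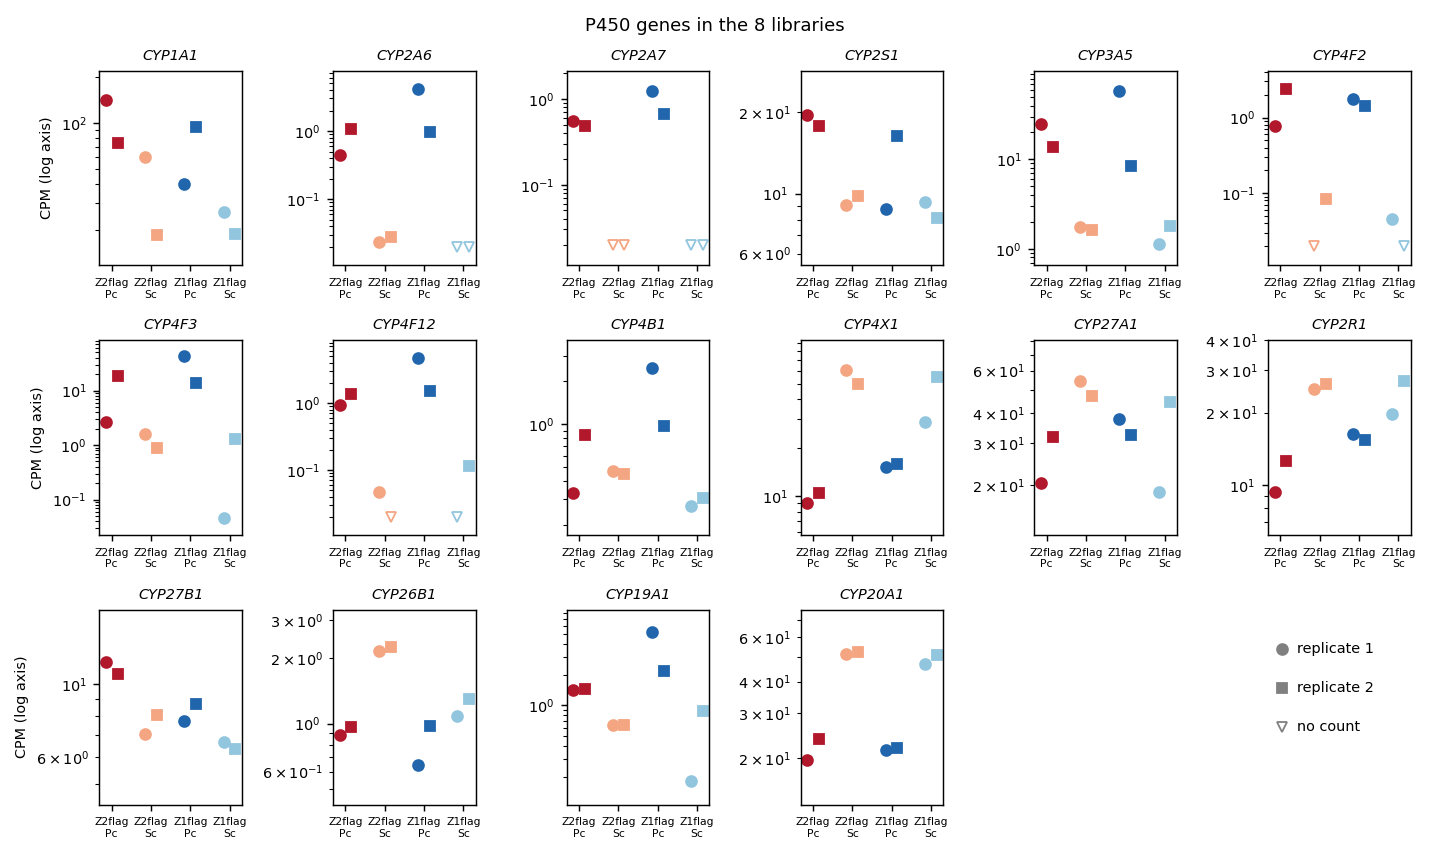
CPM on log axes of 16 P450 genes in the 8 libraries, with circles for replicate 1, squares for replicate 2 and open triangles, drawn under the lowest value, for no count. CYP2A6, CYP2A7, CYP3A5, CYP4F2, CYP4F3, CYP4F12 and CYP19A1 have all 4 Pc libraries above all 4 Sc libraries, and CYP4X1, CYP20A1, CYP2R1 and CYP26B1 have all 4 Pc libraries below.

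Among the vitamin D genes the fitted changes of the first and the last step of activation had opposite signs. Within the lines, the gene of the first step passed in Z2flag only, and the gene of the last step in neither. CYP2R1, the microsomal enzyme of the first hydroxylation of vitamin D (chromosome 11, 14877440 to 14892252), had 9.32 and 12.6 CPM in Z2flag Pc, against 25.1 and 26.4 CPM in Z2flag Sc. In Z1flag it had 16.3 and 15.3 CPM in Pc, against 19.7 and 27.1 CPM in Sc. The groups were apart in both lines. It fell to 0.426 of the Sc level in the Z2flag line (log2 -1.23, SE 0.24, adjusted p = 0.00385), and in the Z1flag line its log2 fold change was -0.57 (SE 0.24, adjusted p = 0.0826). CYP27B1, the mitochondrial enzyme that makes the active hormone (chromosome 12, 57762334 to 57768986), had 11.6 and 10.7 CPM in Z2flag Pc, against 7.08 and 8.05 CPM in Z2flag Sc. The Z1flag Pc libraries had 7.72 and 8.68 CPM and the Z1flag Sc libraries 6.67 and 6.37 CPM. It passed in the mean of both lines only (1.36-fold, log2 0.44, SE 0.17, adjusted p = 0.0487), and that call was lost without any of 5 libraries: replicate 1 (adjusted p = 0.128) or 2 (0.14) of Z1flag Sc, replicate 1 of Z2flag Pc (0.0714), and replicate 1 (0.22) or 2 (0.136) of Z2flag Sc. It was also lost with no filter (0.206). In the Z2flag line (log2 0.56, adjusted p = 0.0923) it passed without replicate 1 (0.0274) or 2 (0.0302) of Z1flag Pc. METTL1 overlaps CYP27B1 on the same strand, averaged 9.87 CPM and had a mean log2 fold change of -1.92, so the reads of CYP27B1 are uncertain. CYP24A1, which inactivates the hormone, had no count in any library.

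CYP27A1, the mitochondrial sterol hydroxylase of bile acid synthesis (chromosome 2, 218781749 to 218815293), did not pass in any of the comparisons between states. It had 20.4 and 31.8 CPM in Z2flag Pc, against 54.4 and 46.9 CPM in Z2flag Sc. In Z1flag it had 37.7 and 32.4 CPM in Pc, against 18.7 and 44.2 CPM in Sc, which spanned the Pc values. The log2 fold change was -0.96 (SE 0.36, adjusted p = 0.0595) in the Z2flag line, 0.15 (SE 0.36, adjusted p = 0.756) in the Z1flag line and -0.40 (SE 0.25, adjusted p = 0.199) in the mean. In the Z2flag line it passed without replicate 1 (0.0206) or 2 (0.022) of Z1flag Sc, without replicate 1 of both Z1flag groups (0.0173), on the Z2flag libraries alone (0.0196), by DESeq2 (0.0356) and with no filter (0.000528). The mean passed without replicate 1 of Z1flag Sc (log2 -0.67, adjusted p = 0.0232), without replicate 1 of both Z1flag groups (log2 -0.66, adjusted p = 0.0263) and with no filter (0.0273). The other 5 sterol and bile acid genes fell under the count filter, CYP7A1, the rate-limiting enzyme of bile acid synthesis, among them with no count.

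Of the 4 genes on the retinoid list 2 were tested. CYP26B1, which clears retinoic acid, had 0.882 and 0.962 CPM in Z2flag Pc, against 2.16 and 2.25 CPM in Z2flag Sc. Z1flag Pc libraries held 0.643 and 0.970 CPM, against 1.08 and 1.30 CPM in Z1flag Sc. The groups did not overlap in either line. It fell to 0.419 of the Sc level in the Z2flag line (log2 -1.26, SE 0.39, adjusted p = 0.0276) and to 0.530 in the mean (adjusted p = 0.0172), with a log2 of -0.58 (SE 0.40, adjusted p = 0.270) in the Z1flag line. The Z2flag call was lost without any of the 4 Z2flag libraries (0.108 to 0.157) and by DESeq2 (0.0798). The mean call was lost without replicate 2 of Z1flag Sc (0.0595), replicate 1 of Z2flag Pc (0.0585), or replicate 1 (0.0608) or 2 (0.0707) of Z2flag Sc. CYP26C1, of the same role, had 0.165 to 0.983 CPM in Pc and 0.229 to 0.450 CPM in Sc libraries and passed in no comparison.

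CYP19A1, the aromatase that makes oestrogens, was the 1 tested gene of 6 on the steroidogenic list. It had 1.43 and 1.44 CPM in Z2flag Pc, against 0.642 and 0.647 CPM in Z2flag Sc. For the Z1flag line the values were 5.26 and 2.19 CPM in Pc and 0.180 and 0.878 CPM in Sc. Replicates were close in Z2flag and far apart in Z1flag, and the states did not overlap in either line. It rose in the Z1flag line (6.87-fold, log2 2.78, SE 0.63, adjusted p = 0.00663) and in the mean (3.91-fold, log2 1.97, SE 0.44, adjusted p = 0.00372). The Z2flag change had a log2 of 1.15 (SE 0.62, adjusted p = 0.165), and an adjusted p of 0.0196 when fitted on the Z2flag libraries alone. Without replicate 1 of both Z1flag groups the Z1flag change was log2 1.35 (adjusted p = 0.0592) and the Z2flag adjusted p was 0.021. The log2 in the Z1flag line was 2.04 without replicate 1 of Z1flag Pc, 2.06 without replicate 1 and 4.33 without replicate 2 of Z1flag Sc. MIR4713HG overlaps CYP19A1 on the opposite strand at a mean of 1.4 CPM. The steroidogenic cell marker MC2R had no count, and the summed level of the 4 markers of such cells was at most 0.204 CPM in Pc and 0.0763 CPM in Sc libraries.

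CYP20A1, a P450 with no assigned substrate, fell in both lines and its replicates lay close together. On chromosome 2 (203238940 to 203305611), it had 19.6 and 23.7 CPM in Z2flag Pc, against 51.3 and 52.3 CPM in Z2flag Sc. In Z1flag it had 21.5 and 21.9 CPM in Pc, against 47.0 and 50.8 CPM in Sc. It fell to 0.418 of the Sc level in the Z2flag line (log2 -1.26, SE 0.19, adjusted p = 0.00104) and to 0.444 in the Z1flag line (log2 -1.17, SE 0.19, adjusted p = 0.00126). The difference between the lines was -0.09 on the log2 scale, with a 95% interval of -0.60 to 0.43.

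The remaining 34 P450 genes did not pass the count filter and were not tested. Of these 7 had no count in any library (CYP11B2, CYP24A1, CYP2A13, CYP3A7, CYP4F8, CYP7A1 and CYP7B1), 13 had 1 to 10 counts over the 8 libraries and 14 had more. For a gene with no count, 3 counts set the limit, which is 0.0713 to 0.180 CPM per library. CYP2E1, the ethanol-oxidising P450, held the highest single count of this set, 43 in replicate 1 of Z1flag Pc, against 2 to 7 in the other libraries. CYP2C19 had 42 counts in the Pc and 2 in the Sc libraries, CYP4F11 had 26 in Pc and 3 in Sc, and CYP1B1 had 5 in Pc and 32 in Sc. Each CYP2C19 and CYP4F11 total leant on replicate 1 of Z1flag Pc, with 24 and 20 counts there. These genes were singled out after their values were seen.

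**Figure D4:**
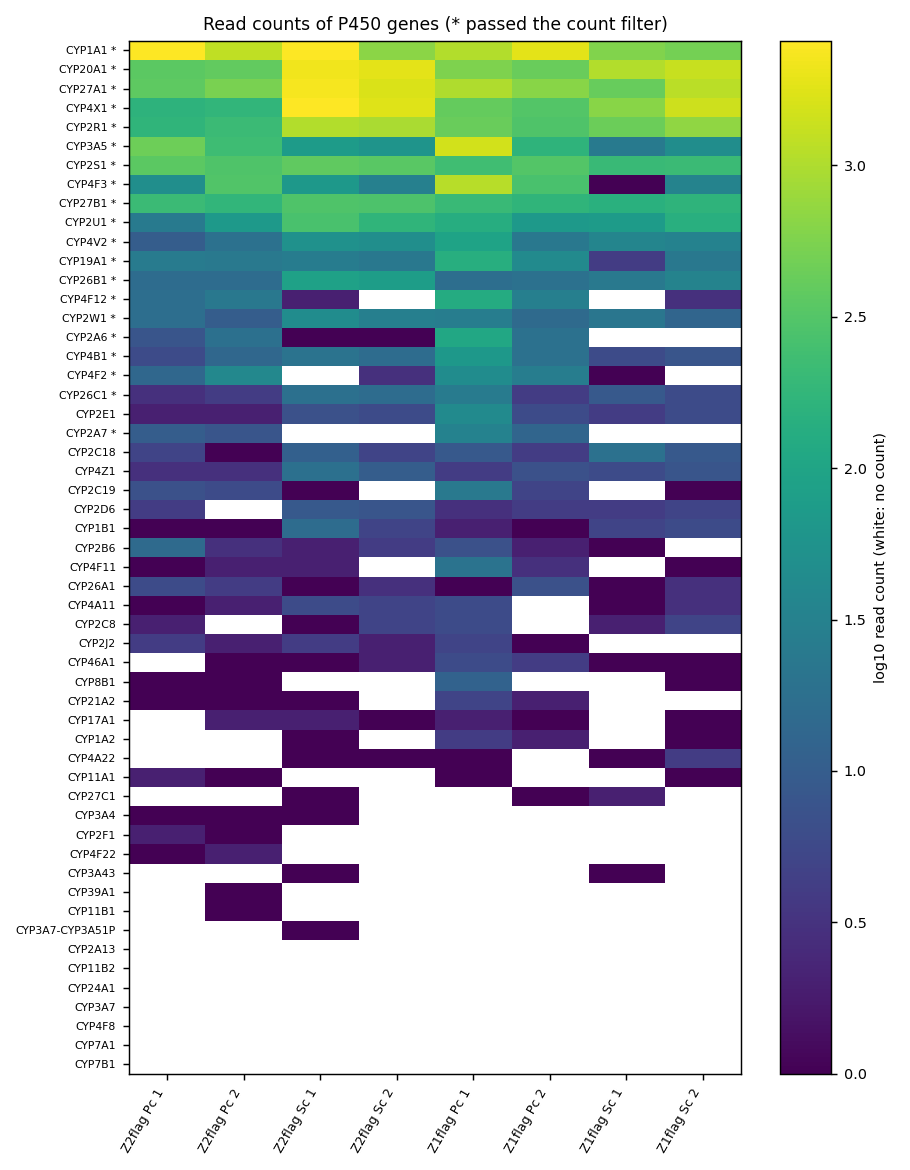
Log10 read count of 54 P450 genes (rows, ordered by total count) in the 8 libraries, white for no count, with asterisks on the 20 of them that passed the filter. The lower part of the map, from CYP2A13 to CYP7B1, shows the 7 genes with no count in any library.

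Whether the change after confluence differed between the lines was tested as the Z2flag change minus the Z1flag change. None of the 21 P450 genes passed by edgeR (0.0% of all genes tested), and none by DESeq2. The fitted difference was below 0 for 19 of the 21, with a median of -0.95 on the log2 scale, against -0.07 over all genes tested. The 19 include CYP2A7, with no Sc count in either line, and CYP2A6, with none in Z1flag Sc. They also include CYP4F2 and CYP4F12, with 1 to 3 Sc counts in each line. The fitted folds of such genes depend on the prior count, so the direction of their difference is uncertain. At an unadjusted p under 0.05 there were 2 P450 genes and 902 of all genes. These 2 were CYP4B1 (difference -2.24 on the log2 scale, 95% interval -3.95 to -0.54, adjusted p = 0.799) and CYP4X1 (-1.08, interval -1.88 to -0.27, adjusted p = 0.799). The intervals were wide for most others, such as -2.95 to 0.98 for CYP3A5 and -1.62 to 1.38 for CYP1A1, so differences of several-fold between the lines lie within them. Between the lines within a state, no P450 gene passed either in Pc cells (0.0% of all genes) or in Sc cells (0.0%), and none by DESeq2. The Z2flag level was fitted below the Z1flag level for 17 of the 21 in Pc cells (median log2 -0.67, against -0.01 over all genes) and for 3 in Sc cells (median 0.33, against 0.04), where CYP2A7 had no count in either line. Unadjusted p was under 0.05 for 5 P450 genes and 1308 genes in all in Pc cells, and for 1 P450 gene and 195 genes in all in Sc cells. In Pc cells CYP2A6, CYP4B1, CYP4V2, CYP4X1 and CYP19A1 were lower in Z2flag than in Z1flag at that level (log2 -1.79, -1.57, -1.5, -0.67 and -1.38, adjusted p = 0.638 each), and in Sc cells CYP26B1 was higher (log2 0.89, adjusted p = 1.0). Of the 5 genes in Pc cells, all but CYP4X1 leant on replicate 1 of Z1flag Pc. It held 4.2 (CYP2A6), 2.46 (CYP4B1), 3.55 (CYP4V2) and 5.26 CPM (CYP19A1), against 0.97, 0.97, 1.17 and 2.19 CPM in replicate 2. The counts of fitted values below 0 include that library.

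P450 enzymes need electrons and haem. Among 7 electron donors of microsomal P450s, 3 rose and 1 fell in the mean of both lines, which is 57.1%, close to the 55.4% of all genes tested. In the Z2flag line alone none rose and 1 fell (14.3%, against 37.6% of all genes tested). POR, the shared reductase, had 79.6 and 91.4 CPM in Z2flag Pc, against 61.3 and 58.1 CPM in Z2flag Sc, and 75.9 and 95.8 CPM in Z1flag Pc, against 41.0 and 55.2 CPM in Z1flag Sc (mean log2 0.68, SE 0.15, adjusted p = 0.00342). CYB5R1 rose (log2 1.05) and CYB5B, a cytochrome b5 of the mitochondrial outer membrane, fell (log2 -1.14). FDXR, the ferredoxin reductase of mitochondrial P450s, rose (log2 0.49, adjusted p = 0.0386). Of 8 haem synthesis enzymes 2 rose and 4 fell (75.0%, against the same 55.4%). ALAS1, the enzyme of the first and limiting step, had 144 and 146 CPM in Z2flag Pc, against 69.8 and 66.5 CPM in Z2flag Sc, and 96.2 and 141 CPM in Z1flag Pc, against 64.6 and 61.9 CPM in Z1flag Sc. It rose 1.99-fold (log2 1.00, SE 0.15, adjusted p = 0.000338). ALAD, of the next step, also rose (log2 0.81), while UROD (log2 -1.34), later in the pathway, fell.

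Among the receptors known to control P450 genes, 11 of 22 tested nuclear receptors and factors rose in the mean of both lines and 4 fell, against 27.8% and 27.5% of all genes tested. In the Z2flag line 6 rose and 4 fell (45.5%, against 37.6% of all genes tested), and in the Z1flag line 12 rose and 1 fell (59.1%, against 40.5%). NR1I3, which encodes CAR, had 5.84 and 9.08 CPM in Z2flag Pc, against 0.499 and 0.310 CPM in Z2flag Sc. The Z1flag Pc libraries had 16.4 and 8.73 CPM and the Z1flag Sc libraries 0.180 and 0.572 CPM. It rose 24.1-fold (log2 4.59, SE 0.38, adjusted p = 1.65e-05) without overlap. NR1I2, which encodes PXR, had 1.49 and 1.5 CPM in Z2flag Pc, against 0.475 and 0.338 CPM in Z2flag Sc, and 4.01 and 1.17 CPM in Z1flag Pc, against 0 and 0.305 CPM in Z1flag Sc (mean log2 2.92, SE 0.58, adjusted p = 0.00195). The fatty acid receptor PPARG rose (log2 0.83, adjusted p = 0.000483). HNF4A, a factor of liver and gut epithelium, had 137 and 206 CPM in Z2flag Pc, against 529 and 460 CPM in Z2flag Sc, and 213 and 246 CPM in Z1flag Pc, against 427 and 434 CPM in Z1flag Sc (mean log2 -1.22, SE 0.16, adjusted p = 0.000172). FOXA1 (log2 -1.07) and VDR, the vitamin D receptor (log2 -0.62, adjusted p = 0.0201), also fell.

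On the aryl hydrocarbon receptor list 4 of 5 tested genes rose in the mean of both lines and none fell. Of the 5, 3 rose in the Z2flag line and 1 in the Z1flag line. Among all genes tested, 27.8% rose in the mean, 18.3% in the Z2flag line and 21.3% in the Z1flag line. The 1 of 5 in the Z1flag line was therefore not above the share of all genes. TIPARP, a target gene of the receptor, had 290 and 187 CPM in Z2flag Pc, against 70.5 and 68.8 CPM in Z2flag Sc. Z1flag Pc libraries held 75.5 and 181 CPM, against 83.0 and 71.6 CPM in Z1flag Sc. Replicate 1 of Z1flag Pc, which had the lowest CYP1A1 level of the 4 Pc libraries, also had the lowest TIPARP level of them, inside the Sc range. TIPARP rose in the mean (log2 1.25, SE 0.26, adjusted p = 0.00218) and in the Z2flag line (log2 1.78, SE 0.37, adjusted p = 0.00460), with a log2 of 0.73 (SE 0.36, adjusted p = 0.129) in the Z1flag line. AHR itself had 126 and 61.0 CPM in Z2flag Pc, against 47.4 and 47.2 CPM in Z2flag Sc, and 66.6 and 57.1 CPM in Z1flag Pc, against 53.0 and 52.6 CPM in Z1flag Sc (mean log2 0.61, SE 0.20, adjusted p = 0.0283). AHRR, also on the list, passed neither in a line nor in the mean (mean log2 -0.15, SE 0.43, adjusted p = 0.78 by edgeR). Its level was at most 0.643 CPM.

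**Figure D5:**
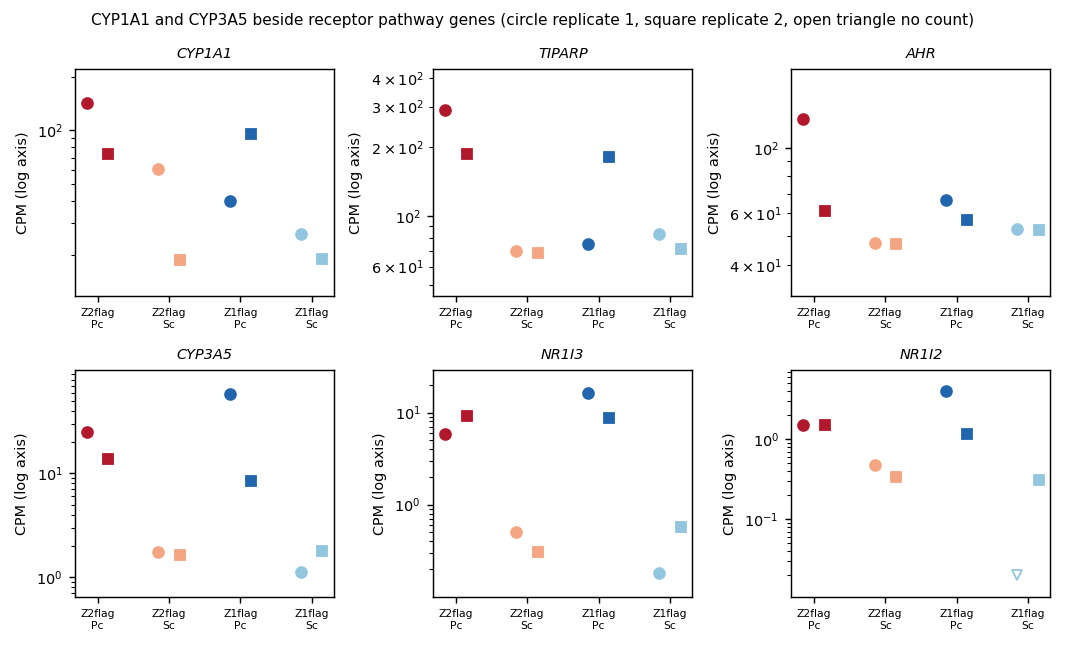
CPM on log axes of CYP1A1 with TIPARP and AHR (top row) and of CYP3A5 with NR1I3 and NR1I2 (bottom row) in the 8 libraries, with circles for replicate 1, squares for replicate 2 and an open triangle for no count. NR1I3 and NR1I2 separate all Pc from all Sc libraries, whereas TIPARP in replicate 1 of Z1flag Pc (75.5 CPM) lies among the Sc libraries.

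Markers of other cell types changed between the states as well. For comparison, 27.8% of all genes tested rose and 27.5% fell in the mean of both lines. In the Z1flag line 21.3% rose, and in the Z2flag line 18.3%. All 11 tested hepatocyte markers of the 14 on the list rose in the mean of both lines and in the Z1flag line, and 7 of the 11 rose in the Z2flag line. Together the 14 markers summed to 3600 and 6510 CPM in Z2flag Pc, against 824 and 648 CPM in Z2flag Sc. In Z1flag Pc the sum was 5490 and 6250 CPM, against 254 and 620 CPM in Z1flag Sc. Albumin (ALB) had 26.8 to 62.4 CPM in Pc and 1.04 to 14.0 CPM in Sc libraries, and F9 none in any. Of the 13 tested intestinal markers 9 rose, with ALPI at 41.6 to 66.4 CPM in Pc and 6.13 to 12.9 CPM in Sc, and 2 fell, the keratins KRT8 and KRT18. The 14 intestinal markers summed to 5520 to 9190 CPM in Pc and 12300 to 14600 CPM in Sc. Fibroblast markers (2 of 3 tested fell) summed to 27.8 to 52.8 CPM in Pc and 102 to 120 CPM in Sc libraries. Leukocyte markers (none of 3 passed in the mean) summed to 15.7 to 27.6 CPM in Pc and 8.79 to 22.8 CPM in Sc, and endothelial markers (1 of 1 rose) to 0.361 to 1.38 CPM in Pc and 0.135 to 0.310 CPM in Sc. Their part in the P450 results was not tested.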

How the data were processed

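RNA-seq read counts per gene were analysed in 8 libraries of human Caco-2/15 cells. The deposited tables hold raw counts per gene identifier. Per the submitters' processing notes, STAR 2.5.2b, SAMtools and HTSeq were used with build hg38; the sources used here name neither the strand setting nor the annotation. Genes were matched to GENCODE version 29 for symbols, biotypes and exon lengths, which placed 58039 of 58302 identifiers. Reads in no feature, ambiguous or not unique were left out of library sizes. The fraction of reads in no feature was 20.6% to 32.0%.

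Genes with enough counts (edgeR's filterByExpr by group, minimum count 10, total 15) were fitted in 1 robust quasi-likelihood model of 4 group means (edgeR 4.0.16, TMM, R 4.3.3, 4 residual degrees of freedom). Contrasts were Pc against Sc in each line, their mean, their difference, and Z2flag against Z1flag in each state. Adjusted p is by Benjamini-Hochberg across the 18240 genes tested. The standard error is the log2 fold change divided by the square root of F, and intervals are 95%. CPM uses TMM-scaled library sizes. Where a group had 3 counts or fewer, ratios of summed counts with exact counting intervals, or lower bounds at a floor of 3 counts over the group, replace fitted folds. The procedure was tested on simulated data.

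Named with values are P450 genes that changed with a mean of at least 0.5 CPM, and others of at least 5 CPM. From each other list, the 2 genes with the smallest p in each direction are named, with NR1I2, NR1I3, AHR, VDR, HNF4A and POR. A few genes that this rule picks are not reported here. The P450 genes and all lists were chosen with earlier results of these data known. Other settings tried were DESeq2 1.42.0, scaling by RLE or by upper quartiles, no filter, at least 1 CPM in 2 libraries, only the libraries of 1 line, a replicate block, and leaving out libraries. Leaving out replicate 1 of both Z1flag groups was chosen after seeing the data. A group left with 1 library was assumed to vary like the others. Promoter windows are from RefSeq (GRCh38.p14).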

Additional observations from a re-analysis of the deposited data

Results flagged for a closer look

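The rows outside the 55 P450 genes, chiefly pseudogenes and antisense transcripts, were not part of the comparisons, and 3 of them were higher in Pc in the mean of both lines: CYP51A1-AS1, CYP2T1P and CYP2B7P. CYP51A1-AS1, an antisense row of CYP51A1, had 22 and 28 counts in Z2flag Pc, against 16 and 16 in Z2flag Sc, and 18 and 26 in Z1flag Pc, against 3 and 7 in Z1flag Sc. Its mean log2 fold change was 2.02 (SE 0.38, adjusted p = 0.00144 by edgeR), and the strand setting used for counting is not stated. CYP2T1P and CYP2B7P are pseudogenes. CYP2T1P had 83 and 123 counts in Z2flag Pc, against 59 and 57 in Z2flag Sc, and 273 and 141 in Z1flag Pc, against 28 and 55 in Z1flag Sc. Its mean log2 fold change was 2.18 (SE 0.27, adjusted p = 0.000122 by edgeR), and it was higher in both Pc libraries of each line. CYP2B7P had 23 and 9 counts in Z2flag Pc, against 9 and 4 in Z2flag Sc, and 115 and 13 in Z1flag Pc, against 2 and 1 in Z1flag Sc. Its mean log2 fold change was 3.84 (SE 0.70, adjusted p = 0.00121). CYP2B6, the coding relative of CYP2B7P, shares 7.74% of its 50-base stretches with other P450 rows, chiefly CYP2B7P, and had 27 counts in Pc and 7 in Sc libraries. These 3 were flagged as signals in rows that the comparisons do not use. CYP4F26P (log2 -3.02, adjusted p = 0.000566) and CYP4F35P (log2 -2.0, adjusted p = 0.0342) were lower in Pc. The other such rows with enough reads did not pass in the mean: CYP51A1, CYP2D7, CYP2D8P, CYP4A22-AS1, CYP51A1P1, CYP51A1P2 and CYP51A1P3. Among all genes tested 55.4% passed in the mean, so changed rows were no more frequent here than among genes at large.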

How the results depend on the processing

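No called change turned its direction. Of 788 recomputed values for single genes, 697 kept their side of the threshold, 68 lost and 23 gained a call, and 0 reversed. Of 39 calls 21 held in every setting. Changes that were not called crossed 0 when a library was left out for CYP27A1 in the Z1flag line (log2 -0.42 to 0.90) and CYP4B1 in the Z2flag line (-0.39 to 0.94). CYP27A1 and CYP27B1 in the Z2flag line also passed when fitted on the Z2flag libraries alone (adjusted p = 0.0196 and 0.0411), and CYP1A1 there under upper-quartile scaling (0.0459). The number of P450 genes that rose in the Z2flag line was 7, and 3 to 9 when leaving out 1 library, with 3 to 5 that fell. In the Z1flag line it was 10, and 7 to 15, and without replicate 1 of both Z1flag groups it was 6. In the mean it was 12, and 10 to 15. With a replicate block, 6 rose and 5 fell in the Z2flag line, 10 and 2 in the Z1flag line, and 11 and 4 in the mean. Under the block CYP27A1 passed in the Z2flag line (adjusted p = 0.0448), and CYP4F3 there (0.0742) and CYP27B1 in the mean (0.068) did not. Over genes, same-numbered libraries deviated from their group means with a correlation of -0.0892 within Z2flag and 0.0978 within Z1flag, so the numbers were not taken to pair the libraries. Upper-quartile scaling moved the median of all genes to 0.11 (Z2flag), 0.26 (Z1flag) and 0.18 (mean) on the log2 scale, and the share of all calls that were higher to 60.4%, 67.1% and 62.0%, against 48.6%, 52.7% and 50.3%. Under it 9 P450 genes rose and 4 fell in the Z2flag line, 10 and 2 in the Z1flag line, and 12 and 4 in the mean. Depth limits the genes with few counts in Sc cells, whose fitted folds depend on the prior count.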

Other observations

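Genes for other enzymes and transporters that handle the substrates of P450 enzymes gave a mixed picture. Of 7 such genes tested 4 rose and 1 fell in the mean of both lines (71.4%, against 55.4% of all genes tested), with a median log2 fold change of 1.38. EPHX2, the soluble epoxide hydrolase that opens fatty acid epoxides, rose 4.05-fold (log2 2.02, SE 0.23, adjusted p = 7.99e-05 by edgeR). The carboxylesterase CES1 rose 2.61-fold (log2 1.38, SE 0.29, adjusted p = 0.00258). EPHX1, the microsomal epoxide hydrolase, fell to 0.569 of the Sc level (log2 -0.81, SE 0.22, adjusted p = 0.0103). ABCB1, the drug efflux pump, did not pass (log2 -0.65, SE 0.29, adjusted p = 0.0763).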
